A study of Mus musculus with 18 samples.

Results

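The cytochrome P450 genes of families 1 to 3 were examined in 18 mouse liver samples, leaving out all Cyp2c genes, Cyp2e1 and Cyp1a2. Members were chosen by name: protein-coding genes of families 1, 2 or 3 in the standard Cyp nomenclature with 10 or more counts summed over the 18 libraries. Of 55385 genes in the table, 43 had such a name and type, and 37 of these reached the count minimum: 1 gene each of subfamilies 1a, 1b, 2f, 2g, 2r, 2s and 2u, 4 of 2a, 4 of 2b, 8 of 2d, 5 of 2j and 9 of 3a. This rule itself uses no difference between groups, but it was set with earlier results of these data known.

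Microsomal cytochrome P450 enzymes are haem proteins of the endoplasmic reticulum that take electrons from P450 oxidoreductase and insert an oxygen atom into drugs, pollutants, steroids and fatty acids. Families 1 to 3 do most of the oxidation of foreign compounds in the liver, and many of their members, though not all, are concentrated in the hepatocytes around the central vein. Their genes are switched on by ligand-sensing factors, among them the aryl hydrocarbon receptor, the pregnane X receptor and the constitutive androstane receptor. In mice and rats, many of them also differ between the sexes, because growth hormone is secreted in pulses in males and more evenly in females.

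Polyadenylated RNA was sequenced from 6 wild-type C57BL/6J livers, 6 Dp16 livers and 6 Dp16-2xIFNRs livers, each group holding 3 males and 3 females. In Dp16 mice a segment of mouse chromosome 16 is present in an extra copy, which makes them a trisomy 21 model. Dp16-2xIFNRs mice carry the same segment with the dosage of its interferon receptor genes returned to normal, and neither the labels nor the design text names the strain background of these 2 groups. Recorded ages were 17.1 to 18.0 weeks, and no treatment was recorded. None of the 37 genes lies on chromosome 16: 12 lie on chromosome 7, 9 on chromosome 5, 8 on chromosome 15, 5 on chromosome 4 and 1 each on chromosomes 3, 9 and 17.

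Total counts ran from 38236222 to 59923315 per library, and the 37 genes took 0.626% to 1.27% of them. Xist and the Y-linked gene Ddx3y matched the labelled sex in all 18 libraries. The 5 hepatocyte markers (albumin Alb among them) were detected in every group, with summed levels of 48221 to 73227 RPKM per library (read counts scaled to gene length and library size, as deposited by the authors). Libraries 4 and 5 of the Dp16 group were the extremes of the TMM scaling factors (0.8026 and 1.338), and in library 5 Xist measured 176 CPM beside 11.1 to 48.3 in the other 8 female libraries. CPM here means the count scaled to the library total times that factor. The labels give each library its own sample number, sex and age but do not say in words that each is a separate animal, so the p-values measure the spread between these samples. A number in the descriptions, which the labels do not explain, is shared by libraries of different genotypes: 5 such numbers cover 11 of the 18 libraries, always of the same sex and at most 0.1 weeks apart in age. These numbers fall into a lower range (11 libraries) and a higher one (7 libraries).

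Levels per gene length spanned several orders of magnitude. Cyp3a11, the main hepatic 3a enzyme and a classical target of the pregnane X receptor, was highest, with 822 ± 400 RPKM (SD, n = 18). Cyp2d26 followed with 562 ± 113, Cyp2f2, known from naphthalene activation in the airway, with 548 ± 192, and Cyp2d10 with 452 ± 80.0. The order of these 4 neighbours is not settled by these SDs, which mix both sexes, and it was not tested. Cyp2j5, an arachidonic acid epoxygenase, varied little between libraries, at 256 ± 25.6 RPKM. Cyp2r1, a vitamin D hydroxylase, measured 7.74 ± 1.86 RPKM and Cyp2u1, a fatty acid hydroxylase, 7.14 ± 7.03. The family 1 genes known as targets of the aryl hydrocarbon receptor were near the bottom, with 0.366 ± 0.170 RPKM for Cyp1a1 and 0.158 ± 0.103 for Cyp1b1. Cyp2s1, known from epithelia outside the liver, measured 0.0493 ± 0.0549.

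Levels of the 37 genes added up to 4890 ± 730 RPKM (SD, n = 6) for wild-type livers, 4025 ± 646 for Dp16 and 4070 ± 522 for Dp16-2xIFNRs. Their ranges overlapped, at 4269 to 6298, 3340 to 4745 and 3213 to 4573 RPKM. Subfamily 2d gave the largest share in each group, with group means of 35.8%, 32.6% and 33.2% of the sum, followed by 3a with 26.1%, 23.0% and 24.4%. Subfamily 2a held 17.0%, 18.5% and 18.1%. These are means over both sexes, and single libraries ranged more widely. In the same order of groups, 2a ran from 10.1% to 32.9%, 6.50% to 32.1% and 7.62% to 33.0% per library. For 2d the ranges were 23.3% to 48.2%, 22.5% to 43.3% and 23.9% to 42.6%. For 3a they were 14.6% to 41.8%, 13.4% to 37.3% and 18.5% to 29.8%. The 5 genes left out of the tests by the filter on low counts were Cyp3a57 with 82 counts over the 18 libraries, Cyp2d34 with 50, Cyp2j8 with 34, Cyp2j11 with 13 and Cyp2b23 with 10. The other 32 members were tested.

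**Figure D1:**
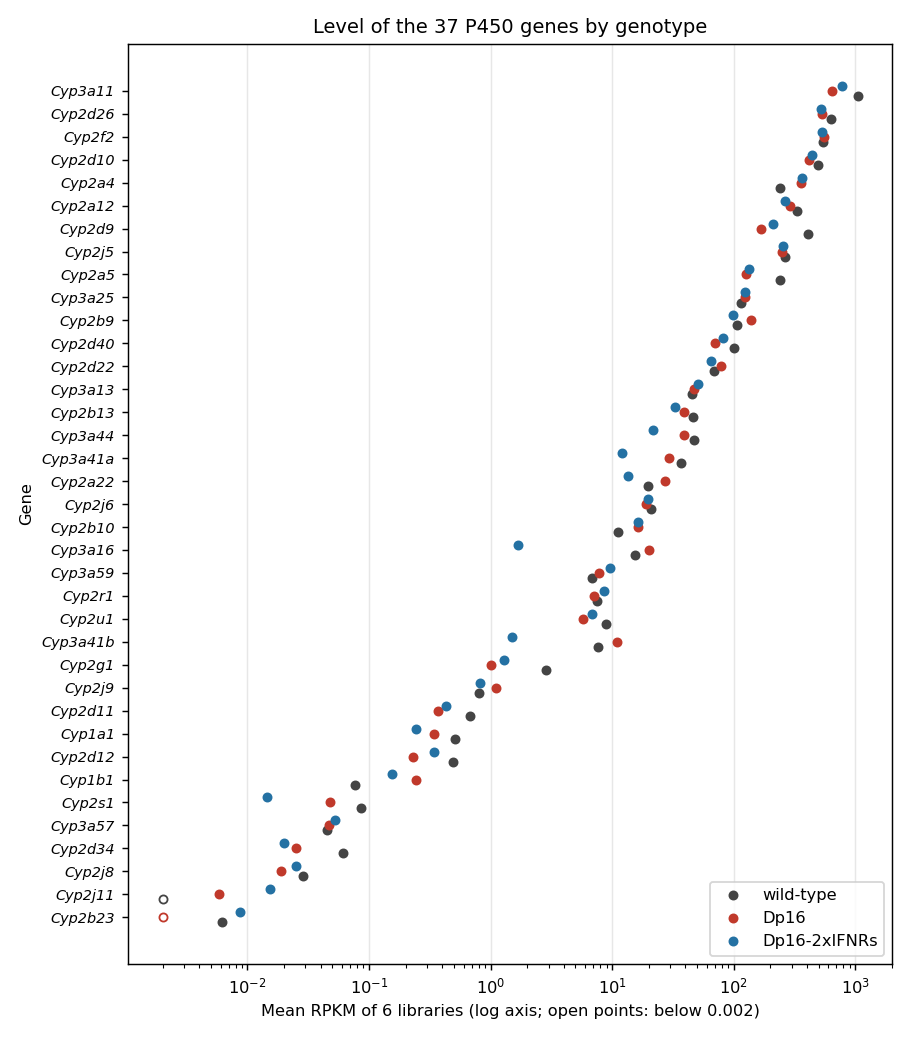
Mean level of the 37 P450 genes in each genotype, in RPKM on a log axis, ordered by the mean over all 18 libraries (6 libraries per point, open points below 0.002). Cyp3a11 is highest in all 3 genotypes, and the points of Cyp3a16, Cyp3a41a and Cyp3a41b for Dp16-2xIFNRs lie left of both other genotypes.

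Dp16 livers were compared with wild-type livers to ask which P450 transcripts accompany the extra segment. No member passed the test in either direction, against 0.0395% of the 15208 genes tested (edgeR quasi-likelihood test with sex as a term, Benjamini-Hochberg adjusted p under 0.05). At an unadjusted p under 0.05, 1 of 32 members was higher (Cyp1b1) and 6 were lower (Cyp2d9, Cyp2a5, Cyp2g1, Cyp2d40, Cyp2u1 and Cyp2d26), against 4.87% of all genes. DESeq2 and limma-voom each called 1 member, Cyp2d9, as lower. The median log2 fold change over the 32 members was -0.32, beside 0.01 over all genes tested, and 23 members lay below 0, as did 48.6% of all genes. Without wild-type library 6 the median was -0.13 (log2), and without Dp16 libraries 4 and 5 it was -0.24, with 26 members below 0. With the shared description number as a random block, limma-voom called 1 member, Cyp2d9 (adjusted p = 0.0398). In bulk tissue, fewer cells of a type and less RNA per cell cannot be told apart.

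Cyp2d9, a testosterone hydroxylase of male mouse liver, had the smallest p in Dp16. In males it measured 1312, 1419 and 1382 CPM in wild-type, and 706, 609 and 457 CPM in Dp16 livers. In females it measured 39.8, 56.2 and 50.6 CPM in wild-type and 27.3, 6.22 and 5.18 CPM in Dp16. Within each sex, every Dp16 library was below every wild-type library, which held for Cyp2d9 alone among the members and for 0.355% of all genes. The log2 fold change was -1.62 (SE 0.362), or 0.325 of the wild-type level, with an adjusted p of 0.1385 (edgeR). Leaving out single libraries gave log2 values from -2.14 to -1.44. The value of -2.14, with an adjusted p of 0.00957 (edgeR), came without Dp16 library 1, the Dp16 female with the highest level. Cyp2d9 was called under 4 of the 36 other settings and library exclusions. Within the lower-numbered libraries the log2 difference was -1.03, and within the higher-numbered ones it was -2.55. About 9.86% of the windows of 100 bases in the Cyp2d9 transcript occur in another gene, and 4.03% occur in the abundant Cyp2d10. The counting of shared reads is not described in the labels, so the low female values of Cyp2d9 are uncertain in this respect.

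Cyp2d9 (ENSMUSG00000068086.6) lies on chromosome 15 (positions 82433437 to 82456845 of GRCm38, plus strand, 9 exons) among the other 7 members of its subfamily. These are GENCODE positions, and the RefSeq start used for its promoter below lies inside them. Its neighbour Cyp2d10, one of the most abundant members, measured a log2 fold change of -0.32 (SE 0.195). The 150 bases before the transcription start of both genes (RefSeq, GRCm38.p6) are shown because these neighbours have promoters that are 82.6% identical over the alignment and differ in sex and in genotype values; no searched motif is present in them, so no letter is in capitals.
Cyp2d9 promoter, chr15:82452227-82452376, plus strand: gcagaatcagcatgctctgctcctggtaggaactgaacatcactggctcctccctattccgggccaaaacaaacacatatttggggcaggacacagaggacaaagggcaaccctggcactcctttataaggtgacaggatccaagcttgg
Cyp2d10 promoter, chr15:82407195-82407344, minus strand: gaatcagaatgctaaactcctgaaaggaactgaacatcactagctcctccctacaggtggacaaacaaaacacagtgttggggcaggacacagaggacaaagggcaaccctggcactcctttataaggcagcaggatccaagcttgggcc

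The other 6 tested genes of subfamily 2d gave smaller differences in Dp16. Cyp2d12, at 0.0181 to 1.33 CPM, measured a log2 fold change of -1.18 (SE 0.760) and Cyp2d11, at 0.234 to 1.69 CPM, of -0.78 (SE 0.403), both with an adjusted p of 0.9985. Cyp2d40 measured a log2 fold change of -0.57 (SE 0.210, adjusted p = 0.768), and Cyp2d26 of -0.32 (SE 0.144, adjusted p = 0.949). For Cyp2d26, 6 of 6 Dp16 libraries lay below the wild-type mean of their sex. Cyp2d22 was on the other side of 0, at 0.08 (SE 0.165).

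Cyp2a5, which hydroxylates coumarin, had the second smallest p in Dp16. It measured 161, 301 and 652 CPM in wild-type males, and 157, 84.2 and 160 CPM in Dp16 males. In females the values were 814, 255.3 and 765 CPM in wild-type and 389, 256 and 374 CPM in Dp16. The Dp16 males all lay below the lowest wild-type male, those at 157 and 160 CPM by a small margin. The female ranges overlapped through wild-type library 4. The log2 fold change was -1.17 (SE 0.323, adjusted p = 0.368). Its close paralog Cyp2a4, a steroid hydroxylase, measured 1.11 (SE 0.567, adjusted p = 0.9985), and its direction was opposite. About 14.4% of the windows of 100 bases in the Cyp2a5 transcript and 11.2% of those in Cyp2a4 occur in another gene, and the counting of shared reads is not described in the labels.

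Cyp2g1, a P450 known from olfactory mucosa, was detected at low levels, with 13.2, 6.35 and 9.88 CPM in wild-type females and 2.87, 3.42 and 3.23 CPM in Dp16 females. Males of both groups measured 0 to 1.52 CPM. The female ranges did not overlap, and the log2 fold change over both sexes was -2.16 (SE 0.669, adjusted p = 0.523). Of the olfactory and skin markers, Krt5 was at 0 in all 18 libraries and Krt14 was at most 0.0822 CPM. Of 6 members whose Dp16 females all lay below all wild-type females (Cyp2u1, Cyp2g1, Cyp3a11, Cyp2d40, Cyp2d9 and Cyp2d10), 1 also did so in males. Among males the 6 such members were Cyp2a5, Cyp2d26, Cyp1a1, Cyp2a12, Cyp2d11 and Cyp2d9. Of all genes tested, 5.41% did so in females and 4.54% in males. No member lay above without overlap in either sex, against 5.97% of all genes in females and 4.15% in males. No member separated all 6 Dp16 from all 6 wild-type libraries, against 0.138% of all genes as higher and 0.0789% as lower.

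The family 1 genes, both targets of the aryl hydrocarbon receptor, had opposite signs in Dp16. Cyp1b1, which oxidises estrogens and aromatic hydrocarbons, measured 0.103, 0.176 and 0.595 CPM in wild-type males and 0.569, 1.40 and 2.76 CPM in Dp16 males. In females it measured 0.654, 0.301 and 0.598 CPM in wild-type and 0.611, 0.811 and 1.53 CPM in Dp16. The Dp16 libraries lay above the wild-type mean of their sex in 6 of 6 cases, but the ranges overlapped in both sexes. The log2 fold change was 1.60 (SE 0.523, adjusted p = 0.621). Cyp1a1 measured -0.75 (SE 0.416, adjusted p = 0.9985), with 6 of 6 Dp16 libraries below the wild-type mean of their sex.

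**Figure D2:**
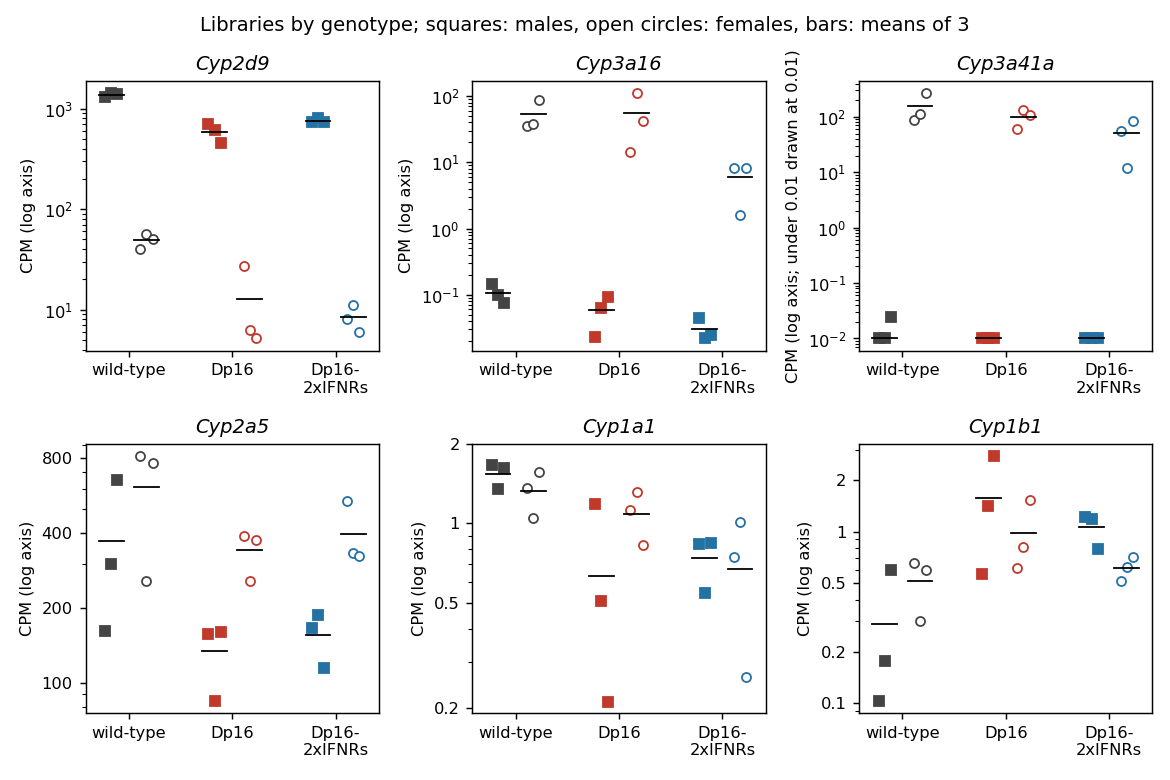
Level of 6 P450 genes in each library, in CPM on log axes, by genotype and sex (filled squares males, open circles females, bars the means of 3 libraries, values under 0.01 drawn at 0.01). Cyp2d9 is lower in both Dp16 groups in each sex without overlap, and the 3 Dp16-2xIFNRs females lie at 1.61 to 8.25 CPM of Cyp3a16, below all other females.

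Dp16-2xIFNRs livers were compared with wild-type livers to ask which differences accompany the segment when the receptor dosage is normal. No member passed the test, against 0.0986% of all genes tested (edgeR). At an unadjusted p under 0.05, 1 of 32 members was higher (Cyp3a59) and 8 were lower (Cyp3a16, Cyp2d9, Cyp3a41a, Cyp3a41b, Cyp2a5, Cyp1a1, Cyp2g1 and Cyp2s1), against 8.66% of all genes. DESeq2 called 2 members as lower, Cyp3a16 and Cyp2d9, and limma-voom called 1, Cyp3a16. The median log2 fold change was -0.31 over the members and -0.02 over all genes, with 22 members below 0, as were 52.6% of all genes. Without wild-type library 6 the median over members was -0.16, and without wild-type library 2 it was -0.19. With the shared description number as a random block, limma-voom called 2 members, Cyp3a16 (adjusted p = 0.0142) and Cyp2d9 (0.0225). This comparison shares its wild-type libraries with the one above. In both of them 20 members measured below wild-type, 7 above it, and 5 had opposite signs.

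Cyp3a16 (ENSMUSG00000038656.5), a 3a enzyme of female and perinatal mouse liver, was the member with the smallest p. It measured 35.9, 37.4 and 88.4 CPM in wild-type females, 14.1, 110.4 and 42.8 CPM in Dp16 females, and 8.25, 1.61 and 8.08 CPM in Dp16-2xIFNRs females. In males it measured 0.144, 0.0975 and 0.0744 CPM in wild-type, and 0.0451, 0.0218 and 0.0249 in Dp16-2xIFNRs. The Dp16-2xIFNRs libraries lay below all wild-type libraries in each sex, although the male values rest on 3 to 7 counts per wild-type library and 1 to 2 per Dp16-2xIFNRs library. The log2 fold change against wild-type was -3.08 (SE 0.605), or 0.118 of the level, with an adjusted p of 0.0579. It came below 0.05 without Dp16 library 1, 4 or 5 (adjusted p 0.0343, 0.0416 and 0.0201), which are not in this contrast but share its estimate of the spread. In the lower-numbered libraries the log2 difference was -2.76 and in the higher-numbered ones it was -3.27.

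The paralogs Cyp3a41a and Cyp3a41b, both known from female liver, showed values in the same direction. Cyp3a41a measured 87.8, 112 and 267 CPM in wild-type females, 59.8, 136 and 109 in Dp16 females and 55.3, 11.8 and 86.0 in Dp16-2xIFNRs females. The Dp16-2xIFNRs females lay below all wild-type females by a small margin, and they overlapped with the Dp16 females. The log2 fold change against wild-type was -1.62 (SE 0.497, adjusted p = 0.334). For Cyp3a41b, which measured 10.5, 17.1 and 70.6 CPM in wild-type females and 7.27, 2.05 and 9.74 in Dp16-2xIFNRs females, it was -2.28 (SE 0.706, adjusted p = 0.338). These 2 genes share most of their sequence: 90.8% of the windows of 100 bases in the Cyp3a41a transcript and 88.2% of those in Cyp3a41b occur elsewhere, so the split of reads between them is uncertain. Without wild-type library 6, which was highest for both, the log2 differences were -0.998 and -1.23.

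Not every female gene of the cluster gave such values. Cyp3a44, which lies next to Cyp3a41a, measured 69.5, 107 and 386 CPM in wild-type females and 89.8, 45.7 and 116 in Dp16-2xIFNRs females, which overlap. Its log2 fold change was -0.55 (SE 0.548, adjusted p = 0.759). Cyp3a59, at the end of the cluster, measured 0.58 (SE 0.259, adjusted p = 0.553) and was the member with an unadjusted p under 0.05 that lay above wild-type. Cyp3a11 measured -0.39 (SE 0.393, adjusted p = 0.763), with a spread from 1074 to 5259 CPM among the wild-type libraries and from 1275 to 2526 among the Dp16-2xIFNRs libraries.

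The 3a genes lie in 1 cluster on chromosome 5 apart from Cyp3a13: Cyp3a57, Cyp3a16, Cyp3a41b, Cyp3a41a, Cyp3a44, Cyp3a11, Cyp3a25 and Cyp3a59, from position 145345279 to 146113287 of GRCm38. Promoter stretches of 150 bases are shown for 3 genes of female liver and for Cyp3a11, which did not pass the test for sex, because they are neighbours with similar sequence and unlike expression. Capitals mark TGAACT, which is AGTTCA, an element bound by nuclear receptors, on the other strand.
Cyp3a16 promoter, chr5:145469724-145469873, minus strand: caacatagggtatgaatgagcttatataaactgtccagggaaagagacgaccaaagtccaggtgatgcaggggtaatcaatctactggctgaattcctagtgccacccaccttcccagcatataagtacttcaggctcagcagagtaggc
Cyp3a41a promoter, chr5:145720137-145720286, minus strand: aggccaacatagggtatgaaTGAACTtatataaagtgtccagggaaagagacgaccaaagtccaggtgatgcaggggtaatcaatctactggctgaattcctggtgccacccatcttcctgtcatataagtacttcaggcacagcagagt
Cyp3a44 promoter, chr5:145805875-145806024, minus strand: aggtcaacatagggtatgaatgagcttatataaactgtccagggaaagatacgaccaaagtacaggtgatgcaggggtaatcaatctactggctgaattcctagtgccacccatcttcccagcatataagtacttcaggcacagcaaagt
Cyp3a11 promoter, chr5:145879855-145880004, minus strand: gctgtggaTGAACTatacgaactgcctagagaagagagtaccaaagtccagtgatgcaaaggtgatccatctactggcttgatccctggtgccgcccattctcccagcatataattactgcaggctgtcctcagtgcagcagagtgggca

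The Cyp3a16 stretch was 89.6% identical to that of Cyp3a41a and 91.6% to that of Cyp3a44, but 70.2% to that of Cyp3a11. The letters AGTTCA, searched on both strands from 250 bases before to 50 after the start, occurred in 3 of 32 members with a promoter in the table, Cyp3a41a, Cyp3a41b and Cyp3a11 (9.38%), beside 14.0% of all 32851 promoters. The letters TTCNNNGAA, the form bound by STAT5, occurred in 1 of 32 members (3.12%), Cyp2j11, beside 8.30% of all promoters. The other 5 members, Cyp2d12, Cyp2d22, Cyp2d34, Cyp2g1 and Cyp2u1, had no entry.

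Cyp2d9 measured 737, 798 and 741 CPM in Dp16-2xIFNRs males and 8.09, 11.2 and 5.94 in Dp16-2xIFNRs females, below all wild-type libraries of the same sex. Its log2 fold change against wild-type was -1.68 (SE 0.369, adjusted p = 0.1097), close to the value in Dp16. Without Dp16 library 1 the adjusted p was 0.0303 (edgeR). That library is not in this contrast but shares its estimate of the spread. Single exclusions gave log2 values from -1.79 to -1.49, and Cyp2d9 was called under 7 of the 36 other settings and exclusions. Within the lower-numbered libraries the log2 difference was -1.53 and within the higher-numbered ones it was -2.002. Cyp2a5 measured 166, 186 and 115 CPM in Dp16-2xIFNRs males and 535, 332 and 323 in females, with a log2 fold change of -0.95 (SE 0.322, adjusted p = 0.418). Without wild-type library 5 it was -0.60.

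Cyp1a1 (ENSMUSG00000032315.6) was the 1 member whose 6 Dp16-2xIFNRs libraries all lay below all 6 wild-type libraries, which held for 0.375% of all genes tested. No member lay above in the same way, against 0.48% of all genes. It measured 1.66, 1.35 and 1.61 CPM in wild-type males and 1.37, 1.04 and 1.57 in wild-type females. In Dp16-2xIFNRs it measured 0.834, 0.546 and 0.845 CPM in males and 0.748, 1.01 and 0.263 in females. The log2 fold change was -1.02 (SE 0.416, adjusted p = 0.528). Within each sex taken alone, Cyp1a1, Cyp3a16 and Cyp2d9 lay below wild-type in both males and females, against 0.914% of all genes. In males alone the 5 members below without overlap were Cyp2b10, Cyp1a1, Cyp3a16, Cyp2a12 and Cyp2d9 (8.55% of all genes), and in females alone the 6 were Cyp1a1, Cyp3a16, Cyp2d40, Cyp2d9, Cyp3a41a and Cyp3a41b (4.16%). In males Cyp1b1 and Cyp3a59 lay above all wild-type males, against 7.69% of all genes. No member did so in females (4.48% of all genes) or in both sexes (1.13%).

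The promoter of Cyp1a1 is shown for the core of the site bound by the aryl hydrocarbon receptor and its partner ARNT, GCGTG, in capitals.
Cyp1a1 promoter, chr9:57697463-57697612, plus strand: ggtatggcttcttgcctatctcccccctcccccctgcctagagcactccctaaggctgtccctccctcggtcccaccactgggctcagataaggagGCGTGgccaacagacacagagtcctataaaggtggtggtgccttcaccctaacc
GCGTG on either strand occurred in 5 of 32 members (15.6%), Cyp1a1, Cyp1b1, Cyp2b10, Cyp2j9 and Cyp2r1, beside 32.4% of all promoters. A match of these letters is a description of the sequence and not a measured site.

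**Figure D3:**
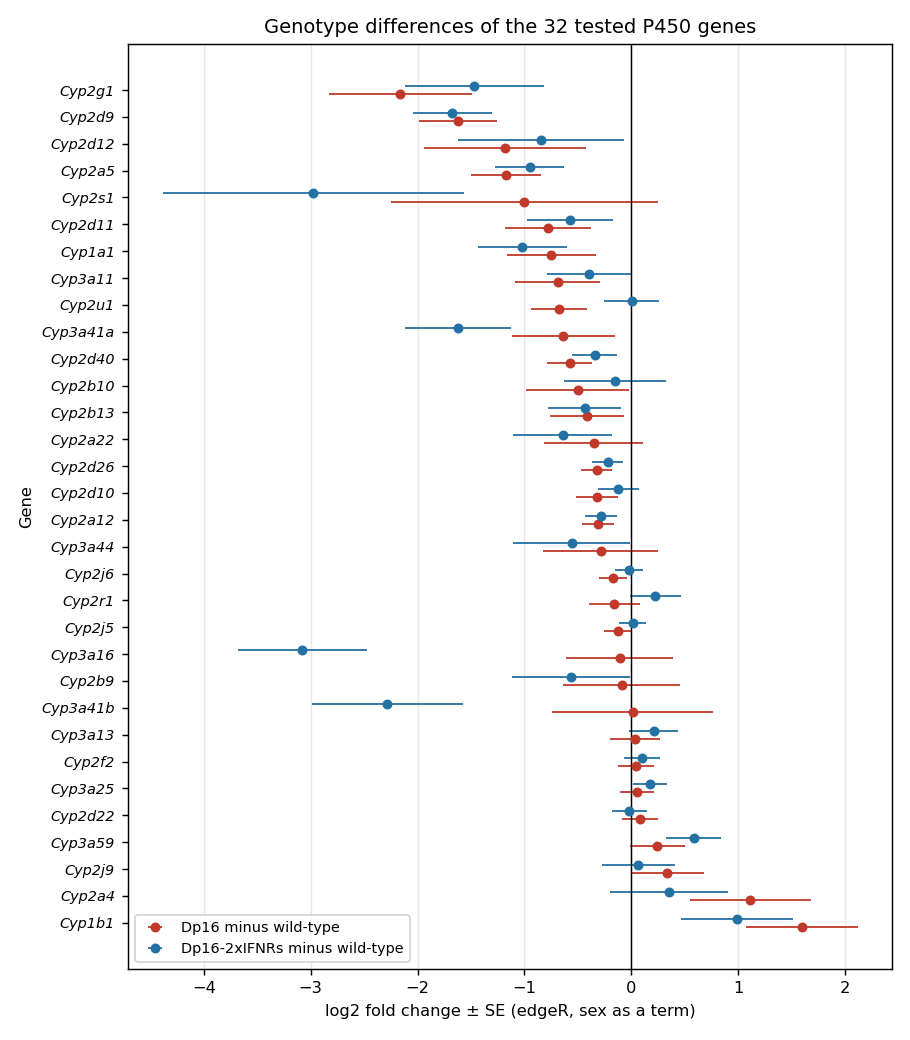
Log2 fold change of the 32 tested P450 genes against wild-type, with its SE, for Dp16 (red) and Dp16-2xIFNRs (blue), from the edgeR fit with sex as a term (n = 6 libraries per group, ordered by the Dp16 value). No gene passed an adjusted p of 0.05 in either comparison, and Cyp3a16 and Cyp3a41b are the genes of the 3a cluster where the blue points stand farthest from the red ones.

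Dp16-2xIFNRs livers were compared with Dp16 livers to ask which values differ with receptor dosage. No member and no other gene passed the test, so 0% of genes were called (edgeR). At an unadjusted p under 0.05, 1 of 32 members was higher (Cyp2u1) and 2 were lower (Cyp3a16 and Cyp3a41b), against 9.32% of all genes. DESeq2 called 1 member, Cyp3a16, as lower. The median log2 fold change was 0.08 over the members and -0.02 over all genes, and 14 members lay below 0, as did 51.9% of all genes. The median over members ran from 0.04 to 0.15 when single libraries were left out. No member separated all 6 libraries of one group from all 6 of the other, against 0.0526% of all genes that did so as higher and 0.105% as lower.

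Cyp3a16 measured a log2 fold change of -2.97 (SE 0.6005, adjusted p = 0.532) against Dp16, and the 3 Dp16-2xIFNRs females lay below the 3 Dp16 females, as for 14.8% of all genes tested. Without Dp16 library 5, the female with 110.4 CPM, the log2 difference was -2.10. Cyp3a41b measured -2.30 (SE 0.702, adjusted p = 0.532), and -1.40 without Dp16 library 5. Cyp3a41a measured -0.98 (SE 0.489, adjusted p = 0.539), with -0.52 and -1.58 without Dp16-2xIFNRs libraries 4 and 6. For Cyp2u1 the value was 0.68 (SE 0.263, adjusted p = 0.532), with Dp16-2xIFNRs females at 7.29, 4.99 and 11.4 CPM and Dp16 females at 3.64, 3.32 and 4.06. Cyp2u1, Cyp3a13, Cyp2r1 and Cyp2d10 were the 4 members whose Dp16-2xIFNRs females lay above all Dp16 females, against 13.4% of all genes. Cyp2r1 measured 0.38 (SE 0.239, adjusted p = 0.587) over both sexes, and 0.60 without Dp16 library 4. Cyp2d9 differed by -0.05 (SE 0.355, adjusted p = 0.958), although its 3 Dp16-2xIFNRs males lay above the 3 Dp16 males, as for 2.56% of all genes, and no member had its males below, as 2.14% did.

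Sex was the contrast in which P450 genes passed the test. Of the 32 members, 17 differed between males and females, 12 higher in females and 5 higher in males, against 6.56% of all genes tested (edgeR, group as a term). At an unadjusted p under 0.05, 21 members differed, against 18.8% of all genes. The female genes were Cyp2a4, Cyp2a5, Cyp2a22, Cyp2b9, Cyp2b10, Cyp2b13, Cyp2g1, Cyp3a16, Cyp3a41a, Cyp3a41b, Cyp3a44 and Cyp3a59. The male genes were Cyp2d9, Cyp2d40, Cyp2f2, Cyp2j6 and Cyp2u1. Female genes were 7 of the 12 members on chromosome 7 and 5 of the 9 on chromosome 5, which are all 12 of them. Male genes were 2 of the 8 members on chromosome 15 and 1 each on chromosomes 3, 4 and 7.

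Cyp2b13 (ENSMUSG00000040583.8) and Cyp2b9 (ENSMUSG00000040660.6), neighbours in the 2b cluster of chromosome 7, were close to all or nothing. Cyp2b13 measured 77.7 to 204 CPM in the 9 female libraries (63373 counts) with 0 counts in the 9 male libraries, so its level was at least 17900-fold higher in females, taking 3 counts over the male group as the floor. Cyp2b9 measured 307 to 574 CPM in females and 0 to 0.293 in males, a log2 difference (male minus female) of -12.50 (SE 0.608, adjusted p = 5.38e-11). Cyp2b10, the phenobarbital-inducible gene of the same cluster, was present in both sexes, with 25.9 to 80.8 CPM in females and 0.121 to 5.89 in males (-4.63, SE 0.446, adjusted p = 5.43e-07). The ranges did not overlap for any of these 3 genes. Promoter stretches of Cyp2b13 and Cyp2b9 are shown because they are 99.3% identical over 150 bases, while that of Cyp2b9 is 73.7% identical to that of Cyp2b10.
Cyp2b13 promoter, chr7:26061345-26061494, plus strand: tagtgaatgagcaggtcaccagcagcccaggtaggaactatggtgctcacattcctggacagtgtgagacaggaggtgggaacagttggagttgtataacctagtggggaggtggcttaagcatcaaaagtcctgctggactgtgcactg
Cyp2b9 promoter, chr7:26173259-26173408, plus strand: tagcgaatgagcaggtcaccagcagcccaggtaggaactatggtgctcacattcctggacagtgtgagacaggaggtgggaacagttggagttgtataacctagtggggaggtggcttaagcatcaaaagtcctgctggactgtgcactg

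In the 3a cluster, Cyp3a41a had 50035 counts in females and 1 count in males, a ratio of 42399 in CPM (95% exact counting interval 7609 to 1674700, counting error only). Cyp3a41b differed by -9.39 (log2, SE 0.681, adjusted p = 8.65e-09) and Cyp3a16 by -9.06 (SE 0.553, adjusted p = 7.23e-10). Cyp3a16 ranged from 1.61 to 110.4 CPM in females and from 0.0218 to 0.144 in males. Cyp3a44 measured 42.4 to 386 CPM in females and 0.979 to 7.31 in males, also without overlap. Cyp3a11, Cyp3a13 and Cyp3a25 of the same subfamily did not pass the test, with log2 differences of -0.15 (SE 0.324), -0.03 (SE 0.190) and 0.20 (SE 0.130).

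Cyp2a4 showed the largest sex difference of the 2a genes, with 447 to 1957 CPM in females and 0.719 to 12.8 in males (log2 -8.87, SE 0.627, adjusted p = 5.68e-09). It was the second most abundant member in females at 642 ± 273 RPKM (SD, n = 9) and measured 1.36 ± 1.74 in males. Cyp2a22 ranged from 26.4 to 124 CPM in females and from 0.394 to 3.73 in males. Cyp2a5 differed less, by -1.14 (SE 0.264, adjusted p = 0.0106), and its ranges overlapped. Cyp2a12, another testosterone hydroxylase, did not pass (-0.26, SE 0.124, adjusted p = 0.264).

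Cyp2d9 was the member with the largest male excess, 457 to 1419 CPM in males and 5.18 to 56.2 in females (log2 5.60, SE 0.353, adjusted p = 1.13e-09). Cyp2u1 ranged from 30.8 to 94.995 CPM in males and from 3.32 to 11.4 in females (3.40, SE 0.233, adjusted p = 3.89e-09). Cyp2f2 measured 980 to 1545 CPM in males and 456 to 902 in females (0.91, SE 0.139, adjusted p = 0.000189). These 3 genes did not overlap between the sexes, as for 0.986% of all genes in this direction, and 9 female genes did not overlap, as for 0.888%. Cyp2d40 (0.88, SE 0.173, adjusted p = 0.00253) and Cyp2j6 (0.42, SE 0.107, adjusted p = 0.020) overlapped. The Cyp2j6 call was lost under 7 of the 32 other settings and library exclusions, among them leaving out wild-type library 3 (adjusted p = 0.0546), and in the higher-numbered libraries alone the calls of Cyp2f2 and Cyp2d40 were lost as well (adjusted p 0.543 and 0.354). There 12 members were called, 10 of them higher in females.

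**Figure D4:**
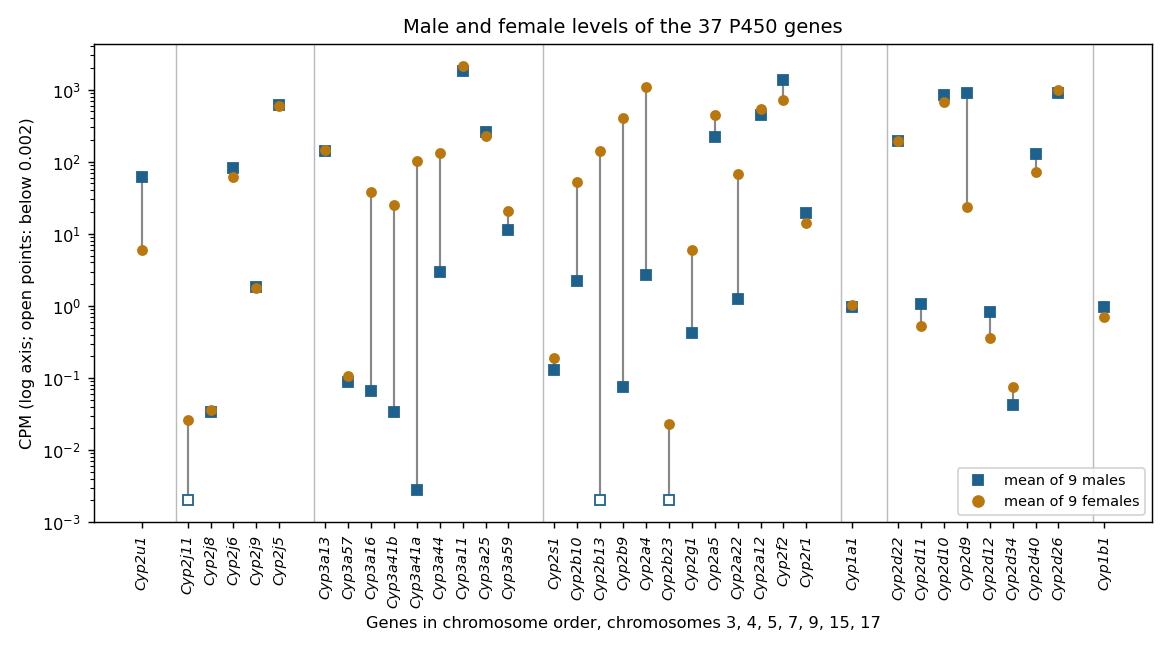
Mean level of the 37 P450 genes in 9 male and 9 female libraries, in CPM on a log axis, in order along chromosomes 3, 4, 5, 7, 9, 15 and 17 (grey lines separate chromosomes, open points lie below 0.002). The long vertical lines with the female point on top are in the groups of chromosomes 5 and 7, and the male point is far above the female one for Cyp2d9 and Cyp2u1.

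The sexes were also compared for the size of the genotype differences. No member and no other gene passed the interaction test for Dp16 or for Dp16-2xIFNRs (0% of genes, edgeR), and DESeq2 and limma-voom called no member. At an unadjusted p under 0.05, 4 members differed for Dp16 (Cyp2r1, Cyp2d10, Cyp3a13 and Cyp2b10), against 7.88% of all genes, and 2 for Dp16-2xIFNRs, against 2.24%. The latter were Cyp2d9, with a log2 interaction of 1.68 (SE 0.626, adjusted p = 1.00), and Cyp2b9, with -5.63 (SE 2.17), which rests on male libraries at or near 0 counts. From the fit with a mean for each group and sex, the log2 difference of Cyp2d9 between Dp16-2xIFNRs and wild-type was -0.85 (SE 0.441) in males and -2.54 (SE 0.466) in females. For Dp16 it was -1.21 (SE 0.444) in males and -1.92 (SE 0.455) in females. In Dp16, 9 of the 12 female genes measured below wild-type, and in Dp16-2xIFNRs 10 did; of the 5 male genes 4 and 3 did so. In females alone, 6 of the 12 female genes were below and 6 above wild-type in Dp16 (median log2 difference -0.07), and 9 were below in Dp16-2xIFNRs (median -0.58). In males alone 8 of them were below and 3 above in Dp16 (median -0.93). In Dp16-2xIFNRs males 9 were below and 2 above (median -0.94). Several of these male values rest on few or no counts: over all males Cyp2b13 had 0 counts and Cyp3a41a had 1. Of the 15 members not called for sex, 10 and 9 measured below wild-type.

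A list of 40 genes that serve or regulate P450 enzymes held electron donors, haem synthesis enzymes and transcription factors, and 39 of them could be tested. None passed the test in either comparison with wild-type or in Dp16-2xIFNRs against Dp16 (edgeR), with 3, 5 and 3 genes at an unadjusted p under 0.05 (7.69%, 12.8% and 7.69% of 39, against 4.87%, 8.66% and 9.32% of all genes). Nr1i3, the constitutive androstane receptor, measured 44.5, 50.03 and 51.2 CPM in wild-type males, 22.0, 18.3 and 38.5 in Dp16 males and 21.8, 33.0 and 22.9 in Dp16-2xIFNRs males. In females Nr1i3 measured 89.8, 79.7 and 109 CPM in wild-type, 76.5, 92.3 and 45.9 in Dp16, and 43.4, 40.9 and 40.2 in the Dp16-2xIFNRs group. The Dp16-2xIFNRs libraries thus lay below all wild-type libraries in each sex, as did 0.914% of all genes. The Dp16 males lay below the wild-type males as well, as did 4.54% of all genes. Its log2 fold change was -0.62 (SE 0.209, adjusted p = 0.650) in Dp16 and -1.03 (SE 0.210, adjusted p = 0.0701) in Dp16-2xIFNRs.

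Ahr, the aryl hydrocarbon receptor, measured -0.76 (log2, SE 0.243, adjusted p = 0.361) in Dp16-2xIFNRs against wild-type and -0.60 (SE 0.243, adjusted p = 0.532) against Dp16. Ppargc1a, a coactivator of nuclear receptors, measured 0.79 (SE 0.239, adjusted p = 0.498) in Dp16 against wild-type and -0.79 (SE 0.239, adjusted p = 0.532) in Dp16-2xIFNRs against Dp16. Over the list, 26 of 39 genes measured below wild-type in each comparison, and the median (log2) was -0.08 in Dp16 and -0.15 in Dp16-2xIFNRs.

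Of the same 39 genes, 7 differed by sex, against 6.56% of all genes tested. Cux2, a repressor of male liver genes in females, measured 16.0 to 35.7 CPM in females and 0 to 0.699 in males (log2 -7.46, SE 0.545, adjusted p = 9.80e-09). Nr1i3 (-1.02, SE 0.172), Por, the P450 oxidoreductase (-1.07, SE 0.253), Ahr (-0.87, SE 0.1996) and Ppargc1a (-0.67, SE 0.195) were also higher in females. Onecut1, a liver transcription factor that responds to growth hormone (1.96, SE 0.506), and Ghr, the growth hormone receptor (0.34, SE 0.102), were higher in males. Adjusted p-values of these 6 genes were 0.000589 for Nr1i3, 0.0127 for Por, 0.00966 for Ahr, 0.0446 for Ppargc1a, 0.0227 for Onecut1 and 0.0482 for Ghr (edgeR).

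The P450 genes of families 1 and 2 that were left out here were counted for comparison. Of 15 tested genes among the Cyp2c genes, Cyp2e1 and Cyp1a2, 11 measured below wild-type in Dp16 (median -0.20, log2). By edgeR 1 was called lower, against 0.0395% of all genes called. At an unadjusted p under 0.05, 6 of 15 were lower and none higher, against 4.87% of all genes. In Dp16-2xIFNRs 9 of 15 measured below wild-type, with a median of -0.15 and none called by edgeR. At an unadjusted p under 0.05, 4 of the 15 were lower and 1 was higher, against 8.66% of all genes. Of 26 tested genes of other Cyp families, 15 and 16 measured below wild-type, with medians of -0.09 and -0.05 and none called by edgeR. At an unadjusted p under 0.05, 4 and 6 of the 26 differed in either direction, against 4.87% and 8.66% of all genes. The difference between these lists and the 32 members was not tested.

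Zone markers of hepatocytes differed alongside the P450 genes, in value but not by the test. The 8 markers of pericentral hepatocytes, the cells where many P450 enzymes reside, all measured below wild-type in Dp16 (median log2 fold change -0.22). In Dp16-2xIFNRs 6 of 8 did (median -0.41). None of these markers was called by edgeR. At an unadjusted p under 0.05, 2 and 5 of them were lower, against 4.87% and 8.66% of all genes in either direction. Their summed level was 1801 to 2138 RPKM per wild-type library, 1350 to 1906 per Dp16 library and 1411 to 1825 per Dp16-2xIFNRs library. The 8 markers of periportal hepatocytes lay above wild-type in 8 of 8 cases in Dp16 (median 0.20) and 7 of 8 in Dp16-2xIFNRs (median 0.30). Their sums were 3769 to 6622, 4674 to 6809 and 5312 to 7465 RPKM. None of them was called by edgeR, and 2 and 3 were higher at an unadjusted p under 0.05. No marker of either list was at 0 in any group. Markers of other cell types also differed in value, with none called by edgeR. All 4 neutrophil and monocyte markers measured above wild-type in both groups (median log2 fold change 0.98 in Dp16 and 1.29 in Dp16-2xIFNRs), with summed levels of 2.15 to 10.0 RPKM per wild-type library, 8.77 to 30.9 per Dp16 library and 9.91 to 32.6 per Dp16-2xIFNRs library. All 4 T and NK cell markers (0.59 and 0.84) and all 5 stellate cell markers (0.34 and 0.32) did as well, over both sexes. By sex, 4 of 4 T and NK markers lay above wild-type in Dp16 males (1.58) and 1 of 4 in Dp16 females (-0.54). In Dp16-2xIFNRs 4 of 4 did so in males (1.44) and 3 of 4 in females (0.51). Of the B and plasma cell markers, 2 of 4 and 4 of 4 lay above wild-type (0.25 and 0.87). These also split by sex in Dp16, with 3 of 4 above in males (0.86) and 1 of 4 in females (-0.29). In Dp16-2xIFNRs 4 of 4 lay above in each sex (1.44 in males and 0.44 in females). Of the erythroid markers, 2 of 3 and 3 of 3 lay above wild-type (1.07 and 1.48). Over both sexes, Kupffer cell markers lay below wild-type in 5 of 6 and 6 of 6 cases (-0.12 and -0.17). The sexes differed: 6 of 6 and 5 of 6 lay above wild-type in males (0.36 and 0.13). All 6 lay below in females of both groups (-0.64 and -0.60). At an unadjusted p under 0.05, the sex interaction differed for 4 of 6 in Dp16 and 2 of 6 in Dp16-2xIFNRs. These shares stood against 7.88% and 2.24% of all genes, with none called by edgeR. Endothelial markers were mixed, with 3 of 5 and 2 of 5 above wild-type (0.09 and -0.14). For cholangiocyte markers 1 of 5 and 2 of 5 lay above (-0.18 and -0.16). The part of these markers in the P450 values was not tested. The airway club cell markers Scgb1a1, Scgb3a2 and Sftpb were at 0 in wild-type and Dp16 libraries and summed to at most 0.730 RPKM in a Dp16-2xIFNRs library, from Scgb1a1, while Cyp2f2 measured 456 CPM or more in each of the 18 libraries.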

How the data were processed

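RNA of 18 mouse liver samples (6 wild-type, 6 Dp16, 6 Dp16-2xIFNRs) was extracted with TRIzol, enriched for polyadenylated RNA, made into strand-specific libraries and sequenced in pairs, per the labels' protocols. The deposited tables hold whole-number read counts per gene and RPKM values. Per the submitters' processing notes, the tools were HISAT2 2.1.0, SAMtools 1.5, HTSeq 0.6.1, FastQC 0.11.5 and bcl2fastq, on build GRCm38, and the authors deposited the RPKM values beside the counts. The names of the deposited tables give GENCODE release M24. Strand setting and handling of shared reads: not given in the sources used here. Total counts were 38236222 to 59923315 per library.

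Counts were fitted with edgeR 4.0.16 in R 4.3.3 (TMM scaling, filterByExpr by group, group and sex as terms, robust quasi-likelihood fit of all 18 libraries), and p-values were Benjamini-Hochberg adjusted over the 15208 genes tested, with a threshold of 0.05. Sex interactions came from a fit with a mean for each group and sex. The SE of a log2 fold change was its size divided by the root of F. Alternatives used DESeq2 1.42.0, limma 3.58.1 (voom, and log2 of RPKM plus 0.1 or 1), other filters, terms and subsets of libraries. Levels are in RPKM where genes are compared and in CPM elsewhere. Counting intervals and floors cover counting error only.

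The members and lists were chosen with earlier results of these data known. Named with values were the 5 members with the smallest p in each genotype contrast, the most abundant member of each subfamily, of the members called for sex, up to 6 with the largest difference in each direction (5 were called as higher in males), and, of the partner list, the called genes or the 2 with the smallest p. Other members with values were named after their values were seen. Libraries of different groups with the same sample number in their titles were checked for pairing. Some of these pairs join a male with a female. Of 18 pairs, 6 correlated above 0.1, so the sample numbers were not used as pairs. The shared description numbers were not checked in this way.

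Gene positions come from GENCODE M21, an earlier release on the same build, where all 37 genes were found by identifier. Promoters come from RefSeq (GRCm38.p6), which held 32 of the 37 genes, and were aligned with Biopython 1.88. Shared sequence is the percent of windows of 100 bases in a transcript that occur in another gene.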

Additional observations from a re-analysis of the deposited data

Results flagged for a closer look

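Dixon's gap ratio compared the highest and lowest of 6 libraries with the others, for 20 named members in each of 3 genotypes. Its critical value was exceeded by 3 of 60 groups, beside about 1 in 20 for draws from 1 normal distribution. Each group holds 3 males and 3 females, and some members are near 0 counts, so that rate does not describe these groups. Cyp2j5 was low in Dp16 library 5, at 447 CPM, beside 561 to 609 CPM in the other Dp16 libraries. That library has the highest TMM factor, 1.338. Cyp2s1 measured 0.234 CPM in Dp16-2xIFNRs library 4, beside 0 to 0.0404 CPM in the other 5. Cyp3a41b measured 70.6 CPM in wild-type library 6, beside 0 to 17.1 CPM in the others, and the 3 males of that group are near 0.

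Pseudogenes of the 2d cluster, which are outside the protein-coding rule, had counts above the level of the other libraries in Dp16 library 5. Cyp2d37-ps measured 39.3 CPM there and at most 12.2 CPM elsewhere. Cyp2d38-ps measured 9.04 CPM beside at most 2.51, and Cyp2d36-ps 1.67 CPM beside at most 0.527.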

How the results depend on the processing

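No log2 difference of a member tracked through the settings changed sign, and the calls by genotype depended on the setting. The median over members in Dp16-2xIFNRs against Dp16 was -0.02 on log2(RPKM + 1). Without one library at a time, genes called in Dp16 against wild-type were 1 to 9 and members 0 to 1; in Dp16-2xIFNRs against wild-type 4 to 48 and 0 to 2; in Dp16-2xIFNRs against Dp16 0 and 0; by sex 788 to 1116 and 16 to 17; and in the interactions 0 to 1 and 0 genes. In the order Dp16 and Dp16-2xIFNRs against wild-type, genes called were 72 and 127 with DESeq2 (7 in Dp16-2xIFNRs against Dp16, 1535 by sex, 52 and 10 in the interactions), 3 and 7 without the sex term, 15 and 66 with the description number as a random block (1 against Dp16), 1 and 43 in fits of only 2 groups, 1 and 64 without Dp16 libraries 4 and 5, 11 and 38 on log2(RPKM + 0.1), 11 and 27 on log2(RPKM + 1), and 0 and 0 in males or females alone. With limma-voom 12 genes were called in Dp16 and 1 in each interaction, as without a filter in each interaction. With the description number range as a term 23 were called in Dp16-2xIFNRs. In the lower-numbered libraries alone 0 and 41 were called, with 533 by sex, and in the higher-numbered ones 0 and 0, with 135 by sex.

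Members called were 1, 2 and 1 in the 3 genotype comparisons with DESeq2 and 1, 1 and 0 with limma-voom. Against wild-type, 1 Dp16 and 2 Dp16-2xIFNRs members were called with the random block. In Dp16-2xIFNRs, 2 were called with only 2 groups or without Dp16 libraries 4 and 5, and 1 with the number range as a term, with either RPKM pseudocount or in the lower-numbered libraries. Members below 0 in Dp16-2xIFNRs against Dp16 numbered 6 in males alone. The replicate block is the sample number in the titles and not the description number. With this block 3 members were called in Dp16-2xIFNRs against wild-type: Cyp3a16 (adjusted p = 0.0263), Cyp3a41a (0.0143) and Cyp3a41b (0.0263). Only 3 of 18 libraries correlated best with one of their own sample number, a hint from the data and not the design. The block moved no other call of a named member. Depth limits Cyp2s1, Cyp2d12 and the male values of the female genes, which rest on few counts. The fits of lower- or higher-numbered libraries alone were chosen after seeing the data.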
